A study of Mus musculus with 3 samples.

Results

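Cholesterol and lipid synthesis genes were examined here for open chromatin in the mouse uterus just before implantation. The 35 genes were taken from a list of named pathway members, and their peaks were those overlapping the gene or the 10 kb on either side of it. They held 42 of the 12413 peaks in the single deposited FAIRE-seq table. FAIRE-seq separates crosslinked chromatin by phenol and so recovers DNA that is little bound by nucleosomes. The DNA came from whole uteri of pregnant wild-type C57BL/6J females aged 6 to 10 weeks, mated with fertile males, taken untreated on gestation day 4 (3 samples, 1 group). A whole uterus mixes epithelium, stroma, muscle, vessels and immune cells, so a peak cannot be placed in a cell type, and fewer open cells cannot be told apart from weaker opening in each. Since the table names no sample, the values have no error between mice, no test was possible, and the depth of sequencing is unknown.

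Cells build cholesterol from acetyl-CoA through mevalonate, squalene and lanosterol. The sterol-sensing system sits in the endoplasmic reticulum: Scap escorts the SREBP transcription factors, encoded by Srebf1 and Srebf2, to the Golgi when sterols are low, and the Insig proteins hold Scap back when sterols are high. Active SREBP binds sterol regulatory elements and E-boxes near the starts of synthesis genes, often beside CCAAT boxes and GC boxes. In the uterus cholesterol is a membrane lipid and the parent of the steroid hormones, while the hormones that prepare implantation come largely from the ovary.

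The starts of 6 genes carry the comparison that follows. They are shown as the 250 bases before an annotated start, from RefSeq on GRCm38.p6, read 5′ to 3′ on the strand of the gene. Capitals mark the searched motifs on either strand: the sterol regulatory element TCACNCCAC, the E-box CACGTG, the CCAAT box CCAAT and the GC box GGGCGG. Hmgcs1 (chr13:119690101-119690350, plus strand) is shown because it alone held the sterol element among the 25 of 35 genes with a listed promoter window. Sc5d (chr9:42264301-42264550, minus strand), Fasn (chr11:120824548-120824797, minus strand), Insig1 (chr5:28071162-28071411, plus strand) and Soat1 (chr1:156474329-156474578, minus strand) had the strongest gene-end peak over a promoter that could be shown in sterol synthesis, fatty acid synthesis, regulation and transport. Insig2 is shown at an outer start without a peak (chr1:121332590-121332839, minus strand) and at an inner start under a peak (chr1:121328025-121328274, minus strand).
Hmgcs1: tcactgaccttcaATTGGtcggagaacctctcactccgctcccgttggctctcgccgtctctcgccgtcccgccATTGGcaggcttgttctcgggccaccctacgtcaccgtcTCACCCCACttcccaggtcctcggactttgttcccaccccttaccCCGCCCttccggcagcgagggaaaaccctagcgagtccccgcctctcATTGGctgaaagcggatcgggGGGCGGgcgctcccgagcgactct
Sc5d: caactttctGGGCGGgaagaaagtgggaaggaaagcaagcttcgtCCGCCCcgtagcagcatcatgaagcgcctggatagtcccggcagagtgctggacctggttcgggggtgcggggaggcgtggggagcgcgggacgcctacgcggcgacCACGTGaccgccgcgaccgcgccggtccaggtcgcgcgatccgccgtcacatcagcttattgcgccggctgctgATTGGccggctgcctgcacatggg
Fasn: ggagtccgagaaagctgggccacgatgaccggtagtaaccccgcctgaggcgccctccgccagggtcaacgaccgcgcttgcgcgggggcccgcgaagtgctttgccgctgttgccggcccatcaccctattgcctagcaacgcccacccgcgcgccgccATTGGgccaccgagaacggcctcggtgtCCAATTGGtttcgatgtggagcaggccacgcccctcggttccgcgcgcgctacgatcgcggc
Insig1: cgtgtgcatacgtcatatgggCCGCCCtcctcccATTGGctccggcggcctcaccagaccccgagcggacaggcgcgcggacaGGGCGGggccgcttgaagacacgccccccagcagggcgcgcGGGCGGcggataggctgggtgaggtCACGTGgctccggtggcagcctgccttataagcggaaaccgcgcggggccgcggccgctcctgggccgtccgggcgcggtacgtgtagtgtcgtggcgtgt
Soat1: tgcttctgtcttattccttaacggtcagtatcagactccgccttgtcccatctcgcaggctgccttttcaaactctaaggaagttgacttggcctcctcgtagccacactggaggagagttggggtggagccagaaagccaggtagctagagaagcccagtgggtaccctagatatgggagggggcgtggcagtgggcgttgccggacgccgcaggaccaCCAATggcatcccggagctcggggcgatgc
Insig2 outer start: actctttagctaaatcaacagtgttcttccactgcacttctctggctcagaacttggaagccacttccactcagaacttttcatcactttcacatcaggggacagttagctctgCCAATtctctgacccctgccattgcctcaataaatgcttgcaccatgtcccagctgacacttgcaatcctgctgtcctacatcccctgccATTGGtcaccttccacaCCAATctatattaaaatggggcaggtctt
Insig2 inner start: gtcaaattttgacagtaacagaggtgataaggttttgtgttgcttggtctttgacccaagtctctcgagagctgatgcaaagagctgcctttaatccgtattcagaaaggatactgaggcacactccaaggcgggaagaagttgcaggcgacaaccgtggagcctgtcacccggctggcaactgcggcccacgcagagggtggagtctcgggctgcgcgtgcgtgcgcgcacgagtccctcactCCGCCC

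Open chromatin lay in or near most of the lipid genes. Of the 35 genes, 32 (91.4%) had a peak inside them or within 10 kb, against 57.6% of all 21523 protein-coding genes. A peak within 1 kb of either annotated end of the gene was present at 24 of the 35 (68.6%), against 44.5% of protein-coding genes. Restricting the background to the 14909 protein-coding genes within the lengths of these 35, 6.79 to 272 kb, gave shares of 65.4% and 51.4%. The median gene length was 19.2 kb, against 17.4 kb over all protein-coding genes, and it reached 28.3 kb for the regulators and 46.8 kb for the transport genes. The strength of a peak is given as the authors' fold enrichment, a linear ratio of the coverage at the summit to a background. By role, a peak within 10 kb was found at 14 of 16 sterol synthesis enzymes, 5 of 5 fatty acid synthesis enzymes, 5 of 5 regulators and 8 of 9 transport and handling genes. The strongest peak per gene had a median fold enrichment of 6.88, 8.69, 6.98 and 7.67 in these roles, in the same order, against 6.61 over all protein-coding genes with a peak. The smaller roles hold 5 genes each, and differences between roles were not tested.

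**Figure D1:**
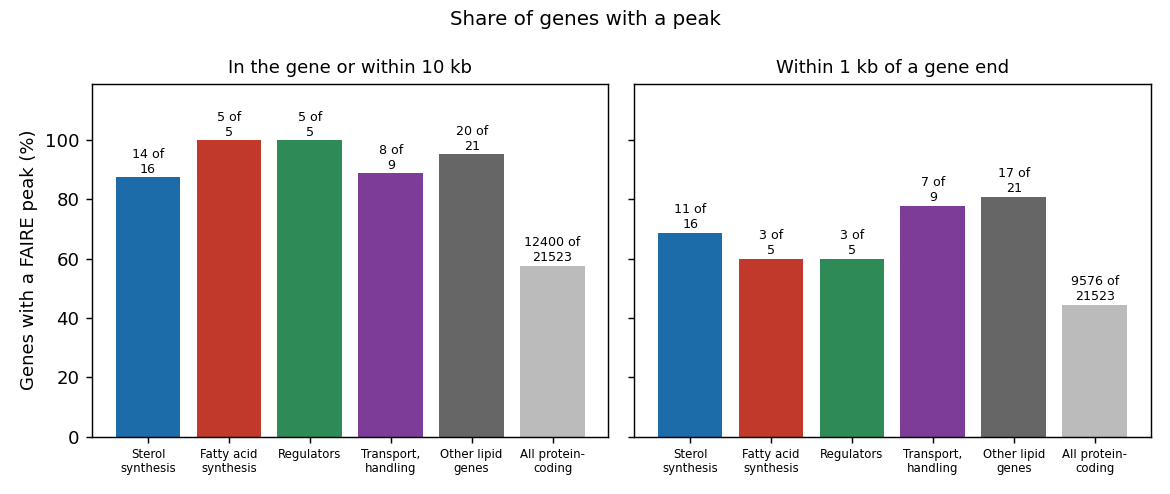
Share of genes (%) with a FAIRE peak inside or within 10 kb (left) and within 1 kb of an annotated gene end (right), by role, for 21 other lipid genes and for all protein-coding genes; numbers above bars are genes with a peak of all genes. Every group of lipid genes stands above the 57.6% and 44.5% of all protein-coding genes.

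The 42 peaks had a median fold enrichment of 6.68 (interquartile range 4.94 to 8.69), against 5.80 (4.37 to 7.79) over all peaks. Their widths were ordinary, at a median of 442.5 bp against 427 bp over all peaks. At gene ends, the strongest peak per gene had a median of 7.57 over the 24 lipid genes, against 6.33 over the 9576 protein-coding genes with a gene-end peak. Of the 24, 10 lay above the upper quartile of that background (8.34) and 3 below its lower quartile (4.85). The median distance from a gene-end summit to the end of its gene was 85 bp.

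**Figure D2:**
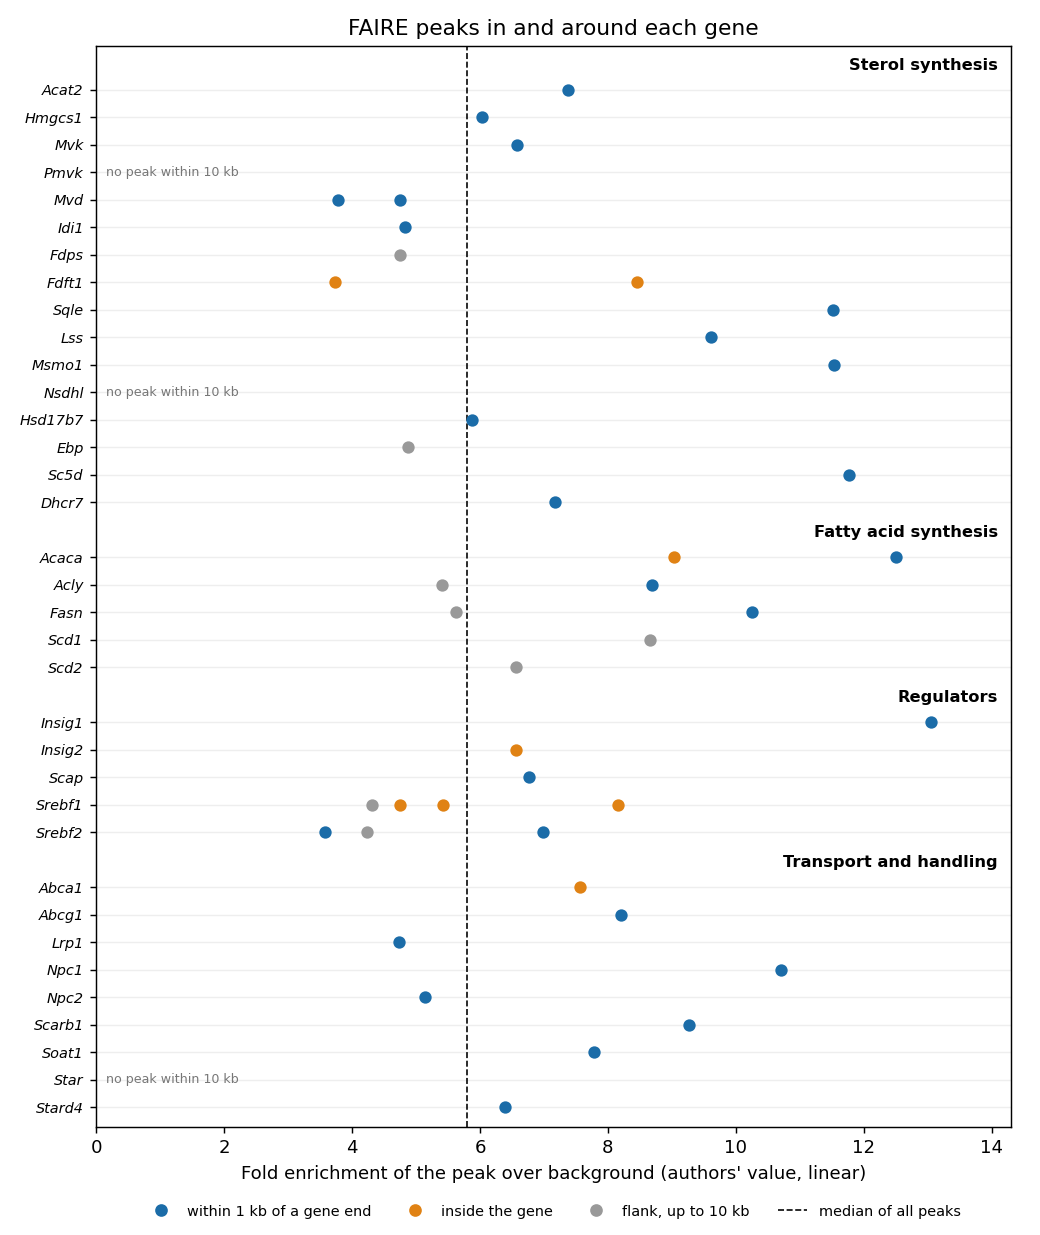
Fold enrichment (linear, authors' value) of every peak in or within 10 kb of each gene, with sterol enzymes in pathway order and colours for the position of the peak. Insig1 (13.1) and Acaca (12.5) hold the strongest peaks, while Pmvk, Nsdhl and Star have none.

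Sterol synthesis enzymes were taken in the order of the pathway. The first enzymes, which lead to farnesyl diphosphate, had peaks of 3.78-fold to 7.37-fold, except Pmvk, which had none within 10 kb. Acat2, which joins acetyl-CoA units, had a peak of 7.37-fold (chr17:12960298-12960687). Hmgcs1, which makes HMG-CoA, had one of 6.04-fold that covered all 250 bases shown above, with its summit 3 bp from the start (chr13:119690017-119690782). The peak of Hmgcs1 was wider than 90.3% of all peaks, at 766 bp. Mvk, mevalonate kinase, had a peak of 6.58-fold (chr5:114443864-114444493) that it shared with Mmab, whose end lay 12 bp from the summit and 191 bp from that of Mvk. Mvd, which makes isopentenyl diphosphate, had a weak peak at its start (3.78-fold, chr8:122443384-122443673). The second peak of Mvd, at 4.75-fold (chr8:122432573-122433076), lay past its far end and 198 bp from the end of Cyba. Idi1, the isomerase of the next step, had a peak of 4.83-fold (chr13:8885489-8885965). The only peak near Fdps, farnesyl diphosphate synthase, lay 2308 bp outside the gene at 4.75-fold (chr3:89090717-89091280), closer to an end of Rusc1. The peak nearest to Pmvk, phosphomevalonate kinase, lay 23741 bp away.

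From squalene on, peaks of several enzymes were among the strongest of the set. Sqle, squalene epoxidase, reached 11.5-fold (chr15:59314763-59315231), with the summit 80 bp from its end. Lss, which closes the sterol rings to lanosterol, reached 9.62-fold (chr10:76531350-76531751). Msmo1, a sterol methyl oxidase, reached 11.5-fold (chr8:64733479-64733958), and Sc5d, a sterol desaturase, 11.8-fold (chr9:42264112-42264532), with its summit on the annotated end. The gene-end peaks of Sqle, Msmo1 and Sc5d exceeded those of 95.7%, 95.8% and 96.4% of protein-coding genes with such a peak. Hsd17b7, a sterol ketoreductase, had a peak of 5.87-fold (chr1:169969158-169969493). Dhcr7, the enzyme of a final reduction, had one of 7.17-fold (chr7:143822783-143823169) that stood nearer to Nadsyn1 (102 bp) than to its own end (203 bp). Fdft1, squalene synthase, had no peak within 1 kb of an end but 2 inside the gene, at 8.46-fold (chr14:63177739-63178194) and 3.73-fold (chr14:63164658-63164874).

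The 2 sterol genes on the X chromosome lacked a peak of their own. Nsdhl, a sterol dehydrogenase, had its nearest peak 269623 bp away. Ebp, a sterol isomerase, had a peak of 4.87-fold 9386 bp outside the gene (chrX:8175656-8175943), 364 bp from the end of Tbc1d25. On the X chromosome, 23.2% of protein-coding genes had a peak inside or within 10 kb, against 57.6% over all chromosomes. Grouped after the values were seen, the 9 enzymes from squalene on had a median gene-end fold of 10.6 in the 6 with such a peak (5.87 to 11.8). The 7 enzymes up to farnesyl diphosphate had a median of 6.04 in 5 (4.75 to 7.37), where the lowest is the Mvd peak beside Cyba and the peak at the start of Mvd stood at 3.78. Those ranges overlap, and the difference was not tested.

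Fatty acid synthesis genes had a gene-end peak at 3 of 5, against 44.5% of all protein-coding genes. The share was 51.4% of those within the length range of all 35 genes. All 3 fatty acid genes with a gene-end peak lay above the upper quartile of protein-coding genes with such a peak. Acaca, acetyl-CoA carboxylase, had a peak of 12.5-fold at its outer start (chr11:84129277-84129823), above 98.05% of protein-coding genes with a gene-end peak. An end of Tada2a lay 9 bp from that of Acaca, so the peak may serve both genes. A second peak of Acaca, of 9.03-fold and 840 bp, lay inside the gene (chr11:84179363-84180202), 49927 bp from the outer start. The promoter window RefSeq lists for Acaca, 65.8 kb from the outer start, had no peak. Acly, which makes cytosolic acetyl-CoA from citrate, had a peak of 8.69-fold at its start (chr11:100527806-100528198). A further peak of 5.40-fold stood 3450 bp outside Acly (chr11:100472454-100472902) and 43 bp from the end of Klhl11.

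Fasn, fatty acid synthase, had the widest peak of the set, 1207 bp, wider than 99.4% of all peaks, at 10.3-fold (chr11:120823655-120824861). It covered all 250 bases shown above. Its flank peak of 5.62-fold (chr11:120796133-120796542) stood 83 bp from the end of Dus1l. The stearoyl-CoA desaturases, which add the first double bond to saturated fatty acids, had no gene-end peak. Scd1 had a peak of 8.67-fold 5539 bp outside the gene (chr19:44388480-44388911) and Scd2 one of 6.57-fold 9144 bp outside it (chr19:44284126-44284532). No other protein-coding gene end was closer to either summit. With 5 kb instead of 10 kb on each side, Scd1 and Scd2 dropped out and the count was 3 of 5.

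Regulators of the sterol response had the highest single peak of the set. Insig1, which retains Scap in the endoplasmic reticulum and is itself a target of SREBP, reached 13.1-fold (chr5:28071010-28071676), above 98.8% of protein-coding genes with a gene-end peak. The nearest end of another protein-coding gene lay 87034 bp from Insig1. Insig2, its relative, had 1 peak of 6.57-fold inside the gene (chr1:121327643-121328155). That peak overlapped promoter windows at 2 inner starts, 4.64 and 4.98 kb into the gene, while the outer start had none. In the runs shown above, the outer start held 3 CCAAT boxes and no GC box at 47.2% G and C, and the inner start 1 GC box and no CCAAT box at 56.8%.

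Srebf1 and Srebf2 differed in where their peaks lay. Srebf1, which is known for alternative first exons, had 4 peaks. The 3 inside the gene, at 4.75-fold (chr11:60222731-60222980), 5.42-fold (chr11:60220247-60220743) and 8.16-fold (chr11:60210334-60210674), each overlapped the promoter window of a different RefSeq start. Those starts lay 1.61, 3.56 and 13.7 kb from the outer end, and the peak farthest into the gene was the strongest, its summit about as near to an end of Rai1 (11291 bp) as to one of Srebf1 (11404 bp). The fourth peak of Srebf1, of 4.31-fold (chr11:60189419-60189706), lay 9378 bp past the gene. Srebf2 had a peak of 6.98-fold on its single listed start (chr15:82146978-82147461) and a weaker one of 3.58-fold 471 bp downstream (chr15:82147558-82147915). Another peak, of 4.23-fold (chr15:82211858-82212654), was closer to Shisa8 (810 bp) than to Srebf2. Scap had 1 peak of 6.77-fold (chr9:110333195-110333761) at its start.

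**Figure D3:**
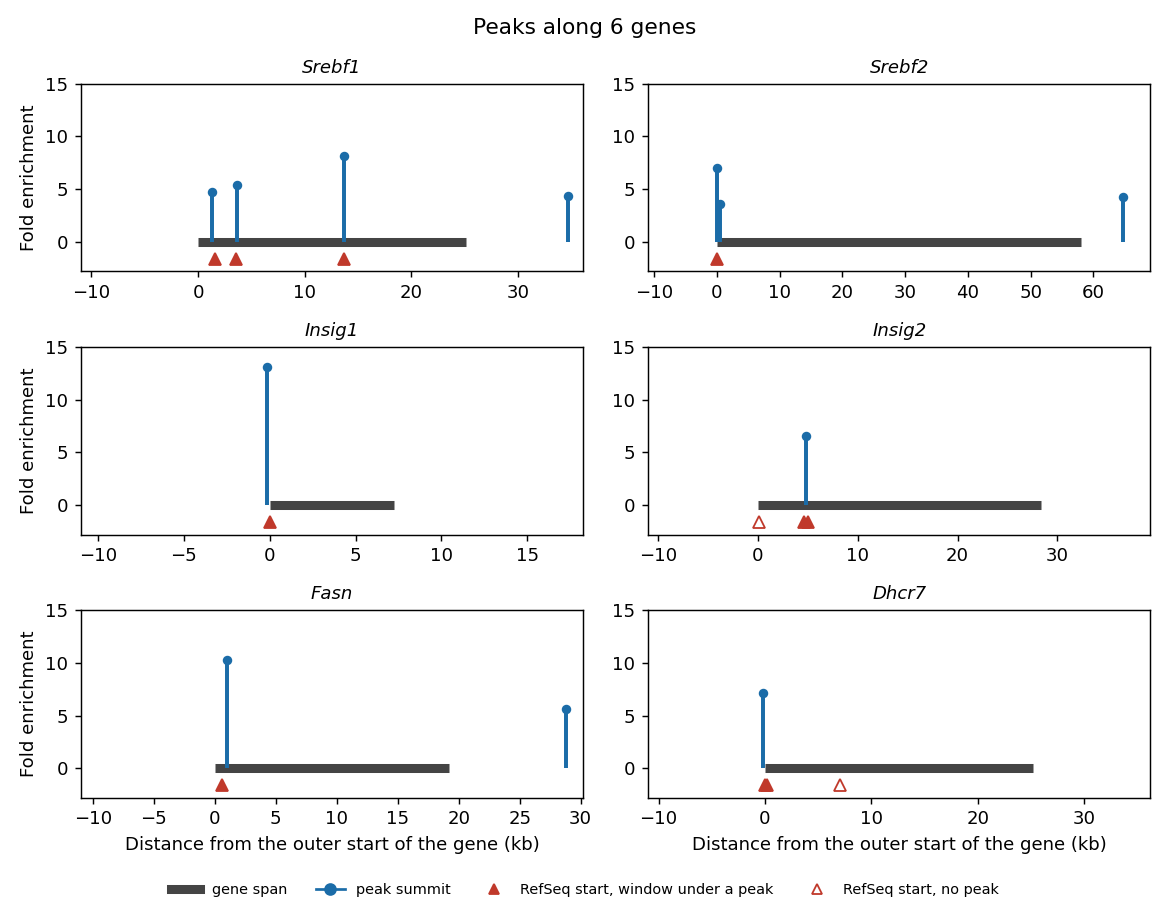
Peaks along 6 genes, drawn with the start on the left: the x axis is the distance from the outer start in kb, the y axis the fold enrichment at each summit, grey bars the gene span and triangles the RefSeq starts (filled where the promoter window overlaps a peak). The promoter windows of all 3 Srebf1 starts overlap peaks, whereas those of the outer start of Insig2 and the start 7.05 kb into Dhcr7 do not.

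Transport and handling genes each had at most 1 peak, where 19.9% of all protein-coding genes had more than 1. With 9 genes this was not tested. A gene-end peak was present at 7 of the 9, against 44.5% of all protein-coding genes. The share was 51.4% of those within the length range of all 35 genes. Npc1, which exports cholesterol from lysosomes, had the strongest peak of the transport genes, 10.7-fold (chr18:12236081-12236603). Its partner Npc2 had 5.14-fold (chr12:84772883-84773291), with an end of Isca2 118 bp from its own. Scarb1, the receptor for high-density lipoprotein, reached 9.26-fold (chr5:125340807-125341263). Soat1, which esterifies cholesterol for storage, reached 7.77-fold (chr1:156473957-156474481), covering 153 of the 250 bases shown above.

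The cholesterol efflux pumps both had a peak. Abcg1 had 8.21-fold at its end (chr17:31057500-31057935). Abca1 had 7.56-fold inside the gene, with the summit 1193 bp from the outer start (chr4:53158643-53158976). The edge of the Abca1 peak stood 1012 bp from that start and so just missed the 1 kb limit. Stard4, a sterol carrier, had 6.39-fold (chr18:33213736-33214123). Lrp1, an endocytic lipoprotein receptor, had a weak peak of 4.73-fold (chr10:127621650-127621911) 502 bp outside the gene. Star, which brings cholesterol into mitochondria for steroid synthesis, had no peak within 10 kb, and the nearest lay 22789 bp away.

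**Figure D4:**
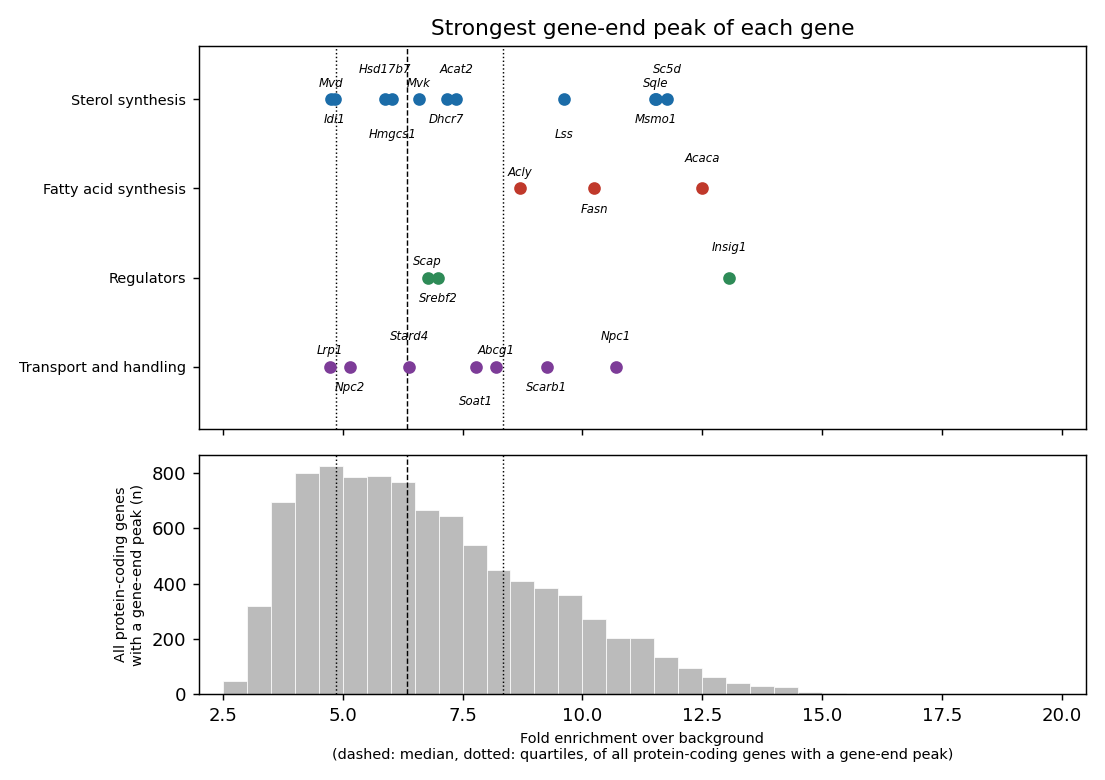
Top, fold enrichment (linear) of the strongest peak within 1 kb of a gene end for the 24 lipid genes that have one, by role; bottom, the same for all 9576 protein-coding genes with such a peak, in bins of 0.5. All 3 fatty acid synthesis genes lie right of the upper quartile (8.34), the 3 regulators right of the median (6.33), and the sterol and transport genes on both sides of it.

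Some peaks may belong to neighbours. Of the 42 peaks, 10 had their summit nearest to the end of another protein-coding gene, and 23 of the 35 genes had such an end within 5 kb of their own. Counting only peaks nearest to the gene's own end left 28 of 35 genes, without Mvk, Dhcr7, Ebp and Fdps. For these counts no share over all peaks or all protein-coding genes was computed, so they are not read as particular to this set. The peaks just inside the 10 kb limit were those of Fasn (9416 bp), Ebp (9386 bp, its only peak), Srebf1 (9378 bp) and Scd2 (9144 bp, its only peak). The first just outside it lay 11170 bp from Lrp1 and 12856 bp from Ebp.

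Promoter windows, 250 bases before to 50 after a RefSeq start, were found for 25 of the 35 genes (33 windows). Of these windows 24 (72.7%) overlapped a peak, against 38.4% of 21045 windows of protein-coding genes. No window was listed for Fdps, Fdft1, Sqle, Scd1, Scd2, Scarb1, Npc1, Abcg1, Star and Stard4. The windows without a peak were those of Ebp, Nsdhl, Abca1 and Lrp1, both of Pmvk, the one of Acaca, the outer start of Insig2 and 1 start of Dhcr7.

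Motifs were counted in the 300-base windows on both strands. The background shares of motifs are over every listed promoter window, not only the 21045 of protein-coding genes. A window counted as under a peak if any of its bases overlapped one, so a motif need not lie inside the peak. CCAAT boxes stood in 16 of the 24 windows under a peak (66.7%), against 35.8% of all 9021 windows under a peak and 37.6% of all 32619 windows. Over all 33 windows of the lipid genes, with or without a peak, the CCAAT share was 63.6%. E-boxes stood in 6 of the 24 (25%), against 11.1% of windows under a peak and 7.2% of all windows. The 6 belong to 5 genes, since both Scap windows hold the same E-box. Over all 33 windows the E-box share was 21.2%. In Sc5d the E-box began 98 bases before the start and in Insig1 101 bases before it. In Hsd17b7 it began 143 bases and in Dhcr7 164 bases before a start. The Dhcr7 E-box lay past the edge of the peak.

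GC boxes were common in all windows overlapping a peak, in 21 of the 24 (87.5%) against 78.1% of all such windows, though 35.9% of all windows. The sterol regulatory element TCACNCCAC stood in 1 of the 24, that of Hmgcs1, where it began 137 bases before the start, against 0.998% of all windows under a peak and 1.25% of all windows. The DR4 motif, a form bound by liver X receptors, was in none of the 33 windows and in 5 of all 32619. CCAAT boxes and their reverse overlap in Fasn, where the run CCAATTGG was counted on both strands. These matches describe the letters in short windows and were not tested.

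Other genes of lipid metabolism, a list of 21, had a peak within 10 kb in 20, against 57.6% of protein-coding genes, and at a gene end in 17, against 44.5%. Their median length was 35.2 kb, against 17.4 kb over all protein-coding genes. Their gene-end folds had a median of 6.94, against 6.33 over protein-coding genes with such a peak, with 6 of 17 above the upper and 4 below the lower quartile. The strongest gene-end peaks were at Osbp, an oxysterol-binding protein (11.5-fold), Mylip, a ubiquitin ligase for lipoprotein receptors (10.6), and Erlin1, a partner of the sterol-sensing machinery (10.3). Mbtps1, the protease that makes the first cut in SREBP, had 10.05-fold, and the X-linked Mbtps2, which makes the second, 4.25-fold. Lbr, a sterol reductase of the nuclear envelope, had 9.79-fold and Acss2, which makes acetyl-CoA from acetate, 6.94-fold. Elovl5, a fatty acid elongase, had 7.26-fold at a gene end and 11.3-fold elsewhere in the gene or its 10 kb flanks. Stard5 had no peak.

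Named markers of the uterus were also looked up. Without another tissue to compare, their peaks cannot check the tissue label. Of 9 uterine genes, 7 had a peak within 10 kb, against 57.6% of protein-coding genes, including Pgr, Lif, Msx1 and Hand2, whereas Esr1 and Foxa2 had none. At a gene end 3 of the 9 had one (Hoxa11, Msx1 and Hand2), against 44.5% of protein-coding genes.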

How the data were processed

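FAIRE DNA from whole uteri of 3 mice on gestation day 4 was sequenced: per the labels' protocols, 100 mg of tissue was crosslinked in 1% formaldehyde for 9 min and sheared to about 300 bp. The labels' growth protocol gives 3 mice, while the design text of the series gives 4 and speaks of RNA. Per the submitters' processing notes, FastQC, Bowtie2, HOMER and MACS2 were used on GRCm38.p5. Versions, call threshold, input control and pooling: not given in the sources used here. For each peak the deposited file lists, per its headers, the pileup (taken as coverage signal at the summit), the fold enrichment (a ratio) and the −log10 q-value; its p-values were not used. It names no sample, so depth and precision are unknown.

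Genes came from RefSeq (GRCm38.p6), with 108 protein-coding genes with starts below 3 Mb (scaffold coordinates) left out. Peaks overlapping a gene and its 10 kb flanks, or 1 kb around either end, were counted with pandas 2.3.3 in Python 3.11.15. Nearest ends used summits. The overlap, nearest-end and motif steps were tested on simulated data. The local background was taken as (pileup + 1) / fold − 1. Every member was named, with every peak of the regulators and at least the strongest of the others. Promoters shown were, for each role, that of the strongest gene-end peak overlapping a listed promoter window off chromosome 18, and any with the sterol element; Insig2 was added after its values were seen. The gene list, roles and settings were chosen with earlier results of these data known. The list of markers of other organs is not reported here. No test was made.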

Additional observations from a re-analysis of the deposited data

How the results depend on the processing

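The 32 of 35 genes with a peak within 10 kb became 25 to 34 over the alternatives, and the 24 with a gene-end peak 19 to 29, while the background moved too. Genes with a peak numbered 34 with 50 kb flanks (70.8% of protein-coding genes), 29 with 5 kb (54.2%), 27 in the gene span alone (48.8%), 26 with the 6206 peaks of highest fold (36.2%) and 25 with those of highest −log10 q (35.8%). Gene-end counts were 29 with 5 kb around each end (51.9%), 23 with 500 bp (41.5%), 20 with the 6206 peaks of highest fold (26.2%) and 19 with those of highest −log10 q (26%). Keeping genes with scaffold coordinates, chosen after seeing the data, moved the background to 57.3%. Medians were called moved beyond 10% and counts beyond 1.5 times, which held for 16 of 96 comparisons. Keeping only the peaks of highest fold cannot raise a count or lower a median fold. The direction of moves under that setting was therefore fixed in advance. The distinct peaks (42) became 77 with 50 kb flanks and 27 with the 6206 peaks of highest fold or highest −log10 q. The median fold of the peaks (6.68) became 7.47 in the gene span alone and 8.21 with either set of 6206 peaks. Sterol enzymes with a peak (14) became 9 with the 6206 peaks of highest −log10 q. Their median strongest fold (6.88) became 8.46 with 50 kb flanks or those peaks, and 7.92 with the peaks of highest fold or with only peaks nearest to the gene. Fatty acid enzymes with a peak (5) became 3 with 5 kb flanks or the gene span alone, and their median strongest fold (8.69) 10.3 in both. The regulators' median (6.98) became 8.16 with 50 kb flanks. Leaving out 30 peaks with a background above 5 times the median, or using peak centres, changed none of these values. No paired analysis was possible because there is 1 group and the table names no sample, and no mouse could be left out in turn. Depth limits could not be assessed.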

Other observations

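The microRNA gene Mir33 lies inside Srebf2, and miR-33 is known to target Abca1. The peak nearest to the Mir33 hairpin stood 13.7 kb away, past the end of Srebf2 (4.23-fold), so no peak marked the hairpin itself. Beyond the 10 kb limit, strong peaks stood 23741 bp from Pmvk (13.3-fold), 22789 bp from Star (10.4-fold), 20763 bp from Npc1 (11.3-fold) and 19006 bp from Srebf2 (11.4-fold). They were picked for their fold, and weak peaks stood there too, such as 2.96-fold 27685 bp from Scap. The gene ends nearest to these peaks are not given here, so none is assigned to a gene. Gpam, a glycerolipid acyltransferase, and Elovl6, an elongase, had their peaks off the gene ends, at 8.315-fold and 6.98-fold.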
